A study of Rattus norvegicus with 6 samples.

Results

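The osteoblast mineralization genes described here are 10 genes, *Runx2*, *Sp7*, *Alpl*, *Spp1*, *Ibsp*, *Bglap*, *Slc13a5*, *Phex*, *Dmp1* and *Mepe*, measured in skeletal muscle of newborn rats. They were chosen by name, with earlier results of these arrays known, and all 10 had a row (11 rows of 26419, since *Sp7* has 2). Of the 10, 6 (*Spp1*, *Ibsp*, *Bglap*, *Alpl*, *Runx2* and *Slc13a5*) stand in the study's short list of its most changed genes, which was drawn up from the same arrays. *Runx2* had a row only through that list, so it could be counted only because it was changed. The study's complete lists were not used here, so the other members may stand in them. The differences of the 10 genes between LBW and ABW pups are therefore given as a description, with no p-value, and calls of members are stated only as a part of it. The array measured 3 LBW (lower birth weight) and 3 ABW (average birth weight) pups, all male Wistar rats of 1 day of age, untreated and of no engineered genotype, with 1 single-colour array per pup. The birth weight of LBW pups lay in percentiles 5 to 25. ABW pups were of percentiles 50 to 75 by the protocol text, whereas their sample labels give 25 to 75. The soleus and gastrocnemius muscles were collected jointly, and the labels do not say which pups shared a litter. The deposited values are log2 signals, so that a difference of 1 is a doubling of brightness.

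Osteoblasts, the cells that lay down bone, arise from mesenchymal precursors under the transcription factors Runx2 and Sp7 (osterix). They then make alkaline phosphatase (Alpl), which frees phosphate for mineral, and fill the matrix with acidic, calcium-binding proteins such as osteopontin (Spp1), bone sialoprotein (Ibsp) and osteocalcin (Bglap). Cells that become buried as osteocytes turn on Dmp1, Mepe and Phex, which act in mineral formation and in the control of phosphate. Following this textbook order, *Runx2*, *Sp7* and *Alpl* are called early here, *Spp1*, *Ibsp*, *Bglap* and *Slc13a5* middle, and *Phex*, *Dmp1* and *Mepe* late.

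All 10 genes had a higher mean signal in LBW than in ABW muscle, beside 44.4% of all genes, and LBW 1 and LBW 3 lay above every ABW pup for all 10. The third LBW pup, LBW 2, was the lowest of the LBW pups for all 10 and lay above every ABW pup for only 5 (*Alpl*, *Spp1*, *Ibsp*, *Bglap* and *Phex*). On the first principal component over all transcripts LBW 2 was at 0.34, between LBW 1 and LBW 3 (-34.02 and -37.95) and the ABW pups (12.00 to 31.22). The median log2 difference of LBW minus ABW was 2.47 over the 10 genes, compared to -0.02 over all 26298 genes and unnamed transcripts, and it became 3.50 on leaving out LBW 2 and 1.71 on leaving out LBW 3. The call rule used here takes its thresholds from the study, a change of at least 1.5-fold together with an unadjusted p under 0.05. Here limma, which the study's methods do not name, computed the p. It was met by 7 of the 10 genes, beside 4.27% of all genes and 2.38% in the direction of higher in LBW (4.28% of single transcripts in either direction). Since the genes were chosen on this contrast, nothing is read from the count. It was 10 without LBW 2, 3 without LBW 1 (*Spp1*, *Ibsp* and *Bglap*), and 3 by the test that the methods name (*Spp1*, *Ibsp* and *Phex*). Every LBW value lay above every ABW value for 5 of the 10, beside 7.27% of all genes, and none had every LBW value below (10.1% of all genes). In bulk tissue, more cells of a type and more RNA per cell cannot be told apart.

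**Figure D1:**
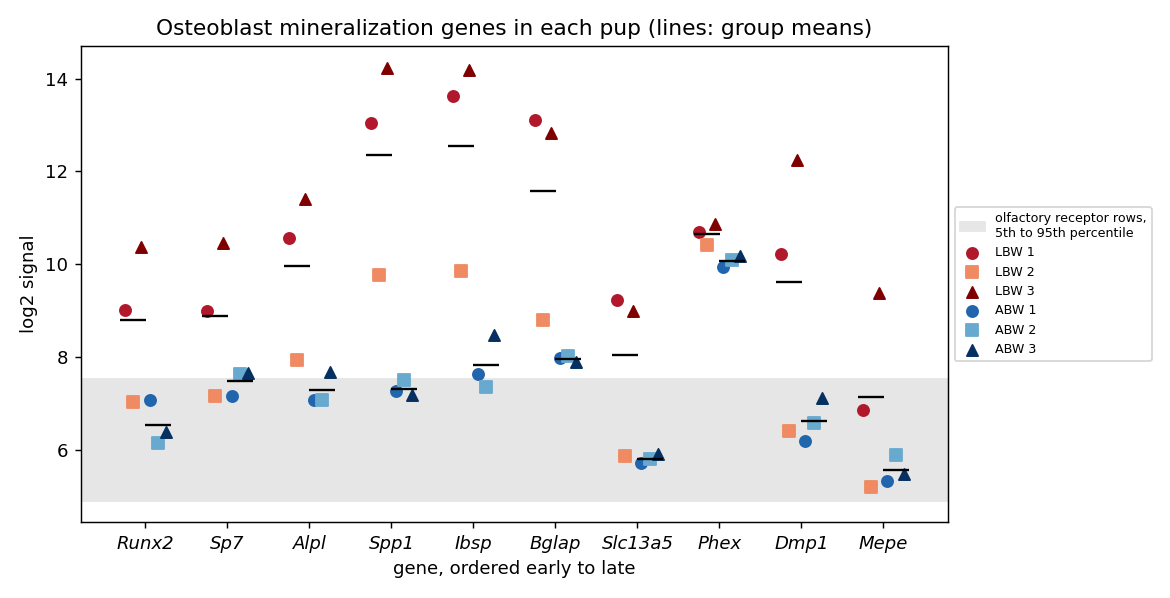
Log2 signal (vertical axis) of the 10 genes in each of the 3 LBW (red) and 3 ABW (blue) pups, with group means as lines and the range of olfactory receptor rows in grey. LBW 1 and LBW 3 lie above all ABW pups for every gene. LBW 2 lies at or near the ABW values except for *Spp1*, *Ibsp*, *Bglap* and *Phex*, where it is between the ABW pups and the other LBW pups.

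Of the early genes, *Runx2* and *Sp7* were above all ABW pups in LBW 1 and LBW 3 only, and *Alpl* in all LBW pups. *Runx2*, the factor without which no osteoblasts form, was at 9.02, 7.05 and 10.38 in LBW 1, 2 and 3 and at 7.09, 6.17 and 6.40 in ABW 1, 2 and 3. LBW 2 was thus below ABW 1, and the groups overlapped. The log2 difference of *Runx2* was 2.26 (SE 0.79), a fold change of 4.80, and it was 3.15 without LBW 2. *Sp7*, which acts downstream of Runx2, was at 9.01, 7.18 and 10.46 in the LBW pups and at 7.17, 7.65 and 7.66 in the ABW pups, as the mean of 2 rows that differed by 0.01 to 0.35 within a pup. LBW 2 lay among the ABW values here too. The log2 difference of *Sp7* was 1.39 (SE 0.76), and it was 2.24 without LBW 2. *Alpl* was at 10.56, 7.93 and 11.41 in the LBW pups, and at 7.09, 7.09 and 7.68 in the ABW pups. Its groups did not overlap, but LBW 2 and ABW 3 were only 0.25 apart. The fold change of *Alpl* was 6.41, on a log2 difference of 2.68 (SE 0.84) that was 3.70 without LBW 2.

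The matrix proteins of the middle stage held the largest differences, and LBW 2 departed most from the ABW mean in them. *Spp1*, a phosphoprotein that binds integrins and mineral, was at 13.03, 9.78 and 14.24 in the LBW pups, compared to 7.27, 7.52 and 7.18 in the ABW pups. LBW 2 was 2.45 above the ABW mean, far outside the spread of the ABW pups (SD 0.17, n = 3). The log2 difference was 5.02 (SE 1.05), a fold change of 32.5, and it was 6.31 without LBW 2. *Ibsp*, which can nucleate mineral, was at 13.63, 9.86 and 14.19 in the LBW and at 7.64, 7.36 and 8.47 in the ABW pups. LBW 2 was again between the groups, 2.03 above the ABW mean. The log2 difference of *Ibsp* was 4.73 (SE 1.10), a fold change of 26.6, and 6.08 without LBW 2. *Bglap*, the vitamin K-dependent hormone and matrix protein osteocalcin, was at 13.10, 8.80 and 12.82 in the LBW pups and at 7.99, 8.02 and 7.91 in the ABW pups. It was the only one of the 3 proteins that was higher in LBW 1 than in LBW 3. Its ABW pups spread least of the 10 genes (SD 0.06, n = 3), so that LBW 2, at 0.83 above their mean, was clear of them. The fold change of *Bglap* was 12.1, on a log2 difference of 3.60 (SE 1.09) that was 4.99 without LBW 2.

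*Slc13a5*, a sodium-dependent citrate transporter, separated from the other middle genes in LBW 2. It was at 9.24, 5.89 and 9.005 in the LBW pups, and at 5.73, 5.81 and 5.92 in the ABW pups. LBW 2 lay within the ABW values, while LBW 1 and LBW 3 were over 3 log2 units above the ABW mean, with 3.42 and 3.18. The fold change was 4.67 (log2 difference 2.22, SE 0.85), and the log2 difference was 3.30 without LBW 2.

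Among the late genes, *Dmp1* and *Mepe* were higher in 2 LBW pups, and *Phex* differed little in any. *Dmp1*, an acidic matrix protein made by osteocytes, was at 10.23, 6.41 and 12.25 in the LBW pups and at 6.21, 6.58 and 7.13 in the ABW pups. LBW 2 was within the ABW range, and the LBW pups spread more for *Dmp1* than for any other of the 10 genes (SD 2.96, n = 3). The log2 difference was 2.99 (SE 1.36), a fold change of 7.95, and it was 4.601 without LBW 2. *Mepe*, a phosphoglycoprotein of osteocytes, was at 6.87, 5.21 and 9.38 in the LBW and at 5.35, 5.90 and 5.49 in the ABW pups. It was the only gene of the 10 for which LBW 2 was below every ABW pup. Its log2 difference was 1.58 (SE 0.96), a fold change of 2.98, and it was 2.55 without LBW 2. *Phex*, the endopeptidase whose loss causes phosphate wasting, was at 10.70, 10.43 and 10.86 in the LBW pups and at 9.93, 10.09 and 10.18 in the ABW pups. All LBW pups were above all ABW pups by a small margin, and LBW 2 lay between the other LBW pups and the ABW pups. The fold change of 1.51 lay just above the criterion of 1.5, on the smallest log2 difference of the 10 genes (0.60, SE 0.14, and 0.71 without LBW 2).

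The signal of several members in ABW muscle was no higher than that of genes not known to be used in muscle. Olfactory receptors served as a rough floor, with 1184 rows, and the 95th percentile of their signals lay between 7.25 and 7.54 in the 6 pups. *Runx2*, *Slc13a5*, *Dmp1* and *Mepe* were at or under it in all 3 ABW pups, *Alpl* and *Spp1* in 2 and *Sp7* in 1. *Ibsp*, *Bglap* and *Phex* were above it in every pup. Against the 90th percentile, 2 members (*Slc13a5* and *Mepe*) remained at or under the floor in all ABW pups. LBW 2 was at or under the 95th percentile for *Runx2*, *Sp7*, *Slc13a5*, *Dmp1* and *Mepe*, and LBW 1 for *Mepe*. Probes differ in brightness between rows, so that the floor is approximate, and how far these ABW signals lie above background is unknown. The sizes of the differences and fold changes given for *Runx2*, *Slc13a5*, *Dmp1* and *Mepe* are therefore uncertain. They are no lower bounds, since LBW 2 was at or under the floor for these genes too. Those of *Alpl*, *Spp1* and *Sp7* may be affected in part.

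The measured order of the genes by log2 difference did not run from early to late. The places of *Runx2*, *Slc13a5*, *Dmp1* and *Mepe* in it are not settled, since the sizes of their differences are uncertain. The places of *Alpl*, *Spp1* and *Sp7* may be affected in part. From largest to smallest the order was *Spp1*, *Ibsp*, *Bglap*, *Dmp1*, *Alpl*, *Runx2*, *Slc13a5*, *Mepe*, *Sp7* and *Phex*. Neighbours in this order differed by 0.04 (*Runx2* and *Slc13a5*) to 1.13 (*Ibsp* and *Bglap*), each less than the SD of the LBW pups for either gene (1.64 to 2.96), except that the LBW pups had an SD of only 0.22 for *Phex*, the last in the order. Relative to the ABW mean, the median of the early genes was 2.47, 0.50 and 3.83 in LBW 1, 2 and 3. For the middle genes it was 5.42, 1.43 and 5.61. For the late genes it was 1.29, -0.23 and 3.80. The middle genes had the highest median in each LBW pup, and early exceeded late in LBW 1 and LBW 2 but hardly in LBW 3. In LBW 2 both medians lay within the deviations of the ABW pups over the 10 genes (-0.46 to 0.65), so their order is not read there. The late minus early difference was -1.17, -0.72 and -0.02 in the 3 LBW pups, a mean of -0.64 ± 0.58 (SD, n = 3), beside -0.04, 0.22 and -0.06 in the ABW pups. In the LBW pups the early median was the value of *Runx2*, and the late median that of *Mepe* (LBW 1 and LBW 3) or *Dmp1* (LBW 2). All of these genes were at or under the floor in the ABW pups. Each stage holds only 3 or 4 genes, and *Phex* and *Dmp1*, both late, were at opposite ends of their stage.

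**Figure D2:**
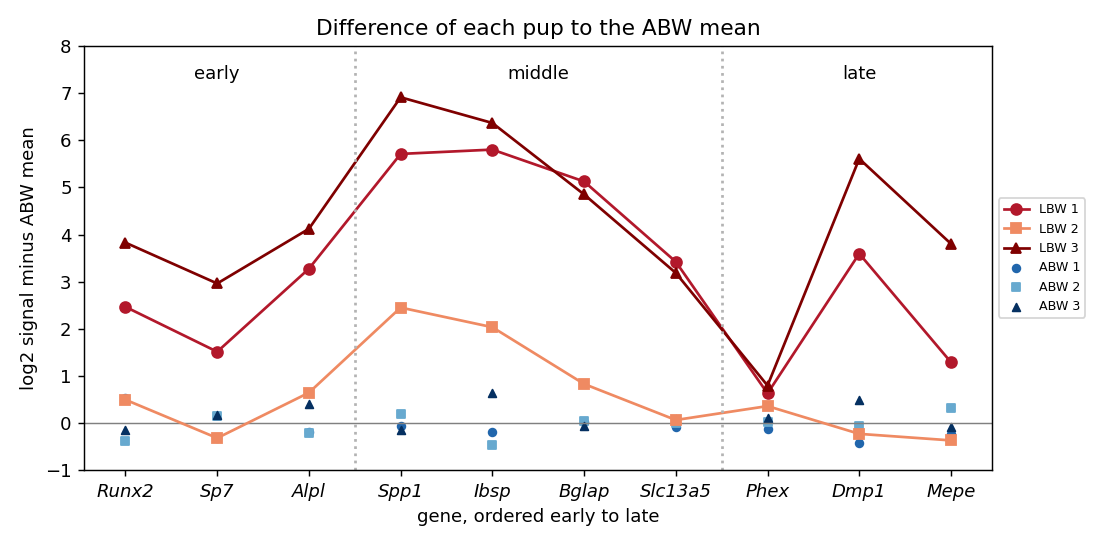
Log2 signal of each pup minus the ABW mean (vertical axis) for the 10 genes, ordered from early to late; lines joining the points of an LBW pup only guide the eye, and unjoined blue points are ABW pups. The curves of LBW 1 and LBW 3 peak at *Spp1* and *Ibsp*, cross at *Bglap* and *Slc13a5* and part at *Dmp1* and *Mepe*, while LBW 2 leaves the ABW points mainly at *Spp1*, *Ibsp* and *Bglap*.

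LBW 1 and LBW 3, in which the genes were highest, differed from each other gene by gene. LBW 3 was the higher for 8 genes and LBW 1 for 2 (*Bglap* and *Slc13a5*). The log2 difference of LBW 3 minus LBW 1 was 2.51 for *Mepe*, 2.01 for *Dmp1*, 1.45 for *Sp7* and 1.36 for *Runx2*, compared to 1.20 for *Spp1*, 0.85 for *Alpl*, 0.56 for *Ibsp* and 0.17 for *Phex*, and to -0.24 for *Slc13a5* and -0.27 for *Bglap*. On the linear scale, the signal above the ABW mean in LBW 3 was 9.03 times that in LBW 1 for *Mepe*, 4.32 times for *Dmp1*, 1.49 times for *Ibsp* and 0.821 times for *Bglap*. The members thus did not keep a fixed ratio between the 2 pups. These are single pups without replicates, so no test was made, and the ratio of *Mepe* rests on a small signal in LBW 1. In LBW 2 the signal above the ABW mean was 51.7% of that in LBW 1 for *Phex* and 8.69% for *Spp1*. It was 8.27% for *Runx2*, 6.28% for *Alpl*, 5.55% for *Ibsp*, 2.29% for *Bglap* and 0.463% for *Slc13a5*. For *Sp7*, *Dmp1* and *Mepe*, LBW 2 was below the ABW mean. For *Runx2*, however, LBW 2 was no farther above the ABW mean (0.50 on the log2 scale) than ABW 1 was (0.54).

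RefSeq promoter sequences of the assembly GRCr8 were available for 8 of the 10 genes (9 windows, since *Runx2* has 2 start sites), and the 250 bases before each start were searched. For the core bound by Runx factors, only the form TGTGGT or its complement ACCACA was searched. These letters were found in windows of 3 of the 8 genes, *Runx2*, *Bglap* and *Mepe*. Of all 33469 windows of the same length, 14.5% held them. The sense-strand letters TATAAA were present in *Spp1* and *Bglap* (8.06% of all windows), and the palindrome TAATTA, a core of homeobox factors such as Dlx5, in *Mepe* (4.86% of all windows). The windows that hold the searched Runx letters are printed here. *Spp1*, which holds none of these letters and has the largest difference, is printed beside them. Other forms of the core were not searched, so a window without these letters may still hold a Runx site. Capitals mark the letters searched, none of which overlapped.
Bglap, chr2:176137319-176137568, minus strand: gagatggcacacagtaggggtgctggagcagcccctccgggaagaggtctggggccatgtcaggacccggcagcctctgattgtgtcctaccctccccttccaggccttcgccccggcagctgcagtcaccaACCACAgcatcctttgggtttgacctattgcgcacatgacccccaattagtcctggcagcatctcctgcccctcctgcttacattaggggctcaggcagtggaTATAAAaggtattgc
Runx2, upstream start site, chr9:23664808-23665057, plus strand: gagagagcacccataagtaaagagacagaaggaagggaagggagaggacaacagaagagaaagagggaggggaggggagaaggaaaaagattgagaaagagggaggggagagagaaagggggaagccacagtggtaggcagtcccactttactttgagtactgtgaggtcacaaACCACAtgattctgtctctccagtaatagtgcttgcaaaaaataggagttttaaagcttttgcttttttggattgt
Mepe, chr14:5736859-5737108, minus strand: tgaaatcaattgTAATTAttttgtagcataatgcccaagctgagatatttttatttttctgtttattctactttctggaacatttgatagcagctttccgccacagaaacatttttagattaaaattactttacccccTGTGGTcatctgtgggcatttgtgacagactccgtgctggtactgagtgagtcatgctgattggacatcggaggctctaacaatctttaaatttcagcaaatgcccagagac
Spp1, chr14:5619805-5620054, minus strand: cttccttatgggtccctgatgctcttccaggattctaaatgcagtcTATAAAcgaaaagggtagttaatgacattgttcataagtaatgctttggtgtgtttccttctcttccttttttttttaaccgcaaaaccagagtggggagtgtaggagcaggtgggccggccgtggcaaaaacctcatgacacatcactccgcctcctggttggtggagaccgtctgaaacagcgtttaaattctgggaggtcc
In *Bglap* the letters ACCACA began 118 bases before the start and TATAAA 15 bases before it. In *Runx2* ACCACA began 76 bases and in *Mepe* TGTGGT 112 bases before the start. In *Mepe* TAATTA began 238 bases and in *Spp1* TATAAA 204 bases before it. A match is a description of the sequence and does not show binding.

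*Spp1*, *Mepe*, *Ibsp* and *Dmp1* lie next to each other on chromosome 14, in a cluster of genes for acidic phosphoproteins of bone and tooth. Of 9 other protein-coding genes beside them in this order, most of them beyond *Dmp1*, 5 had a row, and none met the call rule. All 5 lie on the *Dmp1* side. *Thoc2l* and *Pkd2*, on the *Spp1* side, had no row, so that side was not seen. *Dspp*, which encodes the main proteins of dentin and adjoins *Dmp1*, was at 6.20, 6.03 and 6.20 in the LBW pups and at 6.36, 6.29 and 6.45 in the ABW pups. All 6 values were under the 90th percentile of the olfactory receptor rows, so that no change in its expression is read from the difference (log2 difference -0.22, SE 0.09, adjusted p = 0.418 by limma). *Sparcl1*, an extracellular matrix glycoprotein related to *Sparc*, differed by 0.03 (SE 0.08, adjusted p = 0.908 by limma). *Nudt9*, *Hsd17b11* and *Hsd17b13*, which encode an ADP-ribose hydrolase and proteins of lipid droplets, differed by 0.07, -0.34 and 0.04 (SE 0.08, 0.16 and 0.11, adjusted p = 0.776, 0.444 and 0.906 by limma).

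**Figure D3:**
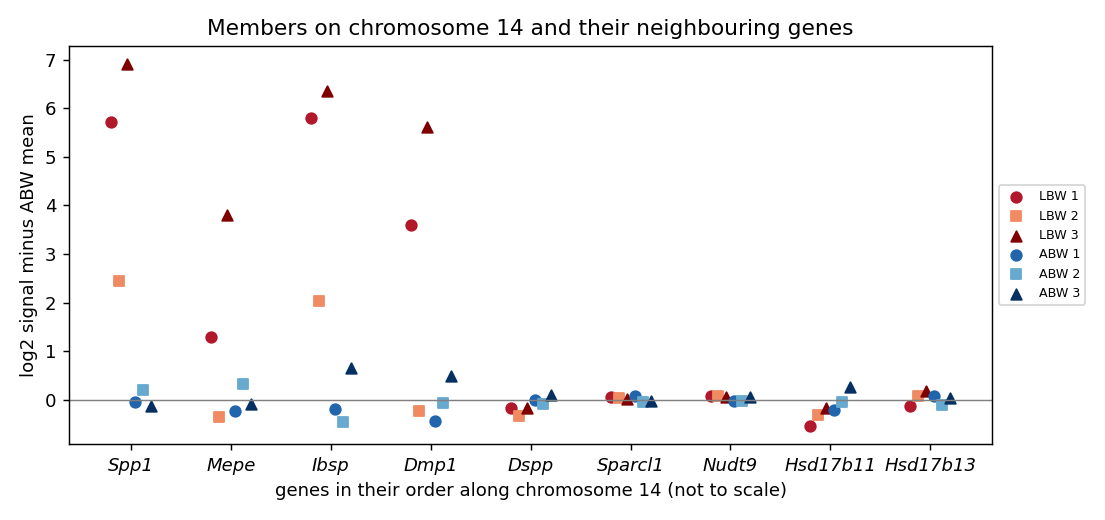
Log2 signal of each pup minus the ABW mean (vertical axis) for the 4 members on chromosome 14 and the neighbours with a row, all on the *Dmp1* side. Genes are in their order along the chromosome and not to scale. The 4 members stand up to 6.91 above the ABW mean in LBW 3, whereas all points of *Dspp*, *Sparcl1*, *Nudt9*, *Hsd17b11* and *Hsd17b13* stay near 0.

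Other genes of osteoblasts and mineralization were read from lists of 83 genes that are no members, of which 57 had a row. Most of them did not differ beyond the spread between pups. Of the 57, 6 (10.5%) met the call rule and all 6 were higher in LBW, beside 4.27% of all genes in either direction and 2.38% higher in LBW. *Tnn*, 1 of the 6, had a row only through the study's short list, and with RefSeq names only 5 were called. The median log2 difference of the 57 was 0.10, compared to 2.47 for the members. No gene of these lists had an adjusted p under 0.05 by limma, while 10 had an unadjusted p under 0.05. Across all transcripts the smallest adjusted p was 0.216, and 12.4% had an unadjusted p under 0.05. The number called rested on single pups, being 13 without LBW 2, 3 without LBW 1, 2 without ABW 2 and 1 (*Ptprz1*) without LBW 3.

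In the list of bone matrix and collagen processing, 3 of 13 genes with a row were called. *Panx3*, a channel protein of osteoblasts and hypertrophic cartilage, was at 10.88, 6.85 and 11.44 in the LBW pups and at 6.23, 6.85 and 6.48 in the ABW pups, with a log2 difference of 3.20 (SE 1.15, adjusted p = 0.352 by limma). *Tnn*, a tenascin of bone and periosteum, was at 9.33, 6.33 and 9.66 in the LBW pups and at 5.98, 6.10 and 5.89 in the ABW pups, with a log2 difference of 2.45 (SE 0.84, adjusted p = 0.339 by limma). Both had the pattern of the members, with LBW 2 near the ABW pups. They were at or under the floor in all ABW pups and in LBW 2, so the sizes of their differences are uncertain. *Ptprz1*, a receptor phosphatase that binds matrix proteins, was at 9.31, 8.61 and 9.83 in the LBW pups and at 7.61, 8.18 and 8.09 in the ABW pups. Here LBW 2 was above the ABW pups, and the log2 difference was 1.29 (SE 0.32, adjusted p = 0.275 by limma). *Panx3*, *Tnn* and, by its accession, *Ptprz1* are in the study's short list of changed genes, so that their calls are not independent evidence. The 10 other genes of this list differed by -0.17 to 0.18. Among them *Col1a2*, a chain of type I collagen and the bulk of bone matrix but also abundant in muscle connective tissue, averaged 14.98 ± 0.13 over the LBW pups and 15.15 ± 0.11 over the ABW pups (SD, n = 3 each). *Sparc* (osteonectin) averaged 15.07 ± 0.08 and 15.18 ± 0.05 (SD, n = 3 each), and *Bgn* (biglycan) differed by -0.04 (SE 0.09, adjusted p = 0.904 by limma).

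Among 17 mineralization enzymes, transporters and inhibitors with a row, 2 were called. *Smpd3*, a sphingomyelinase needed for bone mineral, was at 9.58, 8.49 and 10.00 in the LBW pups and at 8.30, 8.08 and 8.37 in the ABW pups (log2 difference 1.11, SE 0.37, adjusted p = 0.332 by limma). *Slc8a3*, a sodium-calcium exchanger that is also used in muscle, was at 8.46, 7.43 and 8.83 in the LBW pups and at 7.46, 6.98 and 6.91 in the ABW pups (log2 difference 1.12, SE 0.36, adjusted p = 0.325 by limma). For both genes LBW 2 had the lowest LBW value, and only for *Slc8a3* did it overlap the ABW pups. *Fam20a* and *Galnt3* followed with differences of 0.43 and 0.37, short of the fold criterion, and *Galnt3* was at or under the floor in all pups. The inhibitor *Mgp* (matrix Gla protein) differed by -0.02 (SE 0.10), and *Enpp1* and *Ankh*, which supply the mineral inhibitor pyrophosphate outside the cell, by 0.25 (SE 0.17) and 0.15 (SE 0.22). The enzymes that modify osteocalcin with vitamin K, *Ggcx* and *Vkorc1*, differed by 0.24 and -0.30 (adjusted p = 0.619 and 0.389 by limma).

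None of 12 osteoblast transcription factors with a row met the call rule. LBW values were wholly above the ABW values for 3 (*Fosl2*, *Smad5* and *Fhl2*), beside 7.27% of all genes. They were wholly below for 1 (*Msx1*), beside 10.1% of all genes. *Dlx5*, a homeobox factor upstream of *Sp7*, was at 8.14, 5.66 and 8.18 in the LBW pups and at 6.52, 5.98 and 6.11 in the ABW pups. LBW 1 and LBW 3 were thus above the ABW pups and LBW 2 below them (log2 difference 1.13, SE 0.67, adjusted p = 0.544 by limma). The ABW pups and LBW 2 were at or under the floor, so the size of this difference is uncertain. For the same reason, LBW 2 is not read as lower. *Twist2*, which restrains Runx2, differed by -0.70 (SE 0.32, adjusted p = 0.439 by limma), *Lef1*, a Wnt effector, by 0.68 (SE 0.35, adjusted p = 0.493 by limma), and the AP-1 factor *Fosl2* by 0.52 (SE 0.18, adjusted p = 0.338 by limma). *Cbfb*, the partner subunit of Runx2, differed by -0.06 (SE 0.11).

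Of 15 osteocyte, hormone and Wnt signalling genes with a row, 1 was called. *Lrp4*, a receptor for sclerostin that also assembles the neuromuscular junction, was at 10.15, 10.38 and 10.53 in the LBW pups and at 9.69, 9.63 and 9.82 in the ABW pups (log2 difference 0.64, SE 0.12, adjusted p = 0.240 by limma). Unlike for the members, LBW 2 was level with the other LBW pups. *Vdr*, the vitamin D receptor, was at 8.57, 6.80 and 8.99 in the LBW pups and at 5.96, 6.98 and 7.16 in the ABW pups, so that the groups overlapped (log2 difference 1.42, SE 0.61, adjusted p = 0.420 by limma). LBW 2 and the ABW pups were at or under the floor for *Vdr*, so the size of its difference is uncertain. *Tnfrsf11b* (osteoprotegerin), a decoy receptor that holds back osteoclasts, differed by -0.54 (SE 0.25, adjusted p = 0.437 by limma), and *Itgb3* by 0.46 (SE 0.29). The mature osteocyte genes *Sost* and *Fgf23* differed by -0.16 (SE 0.10) and -0.06 (SE 0.15), and both lay under the 95th percentile of the olfactory receptor rows in all pups.

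**Figure D4:**
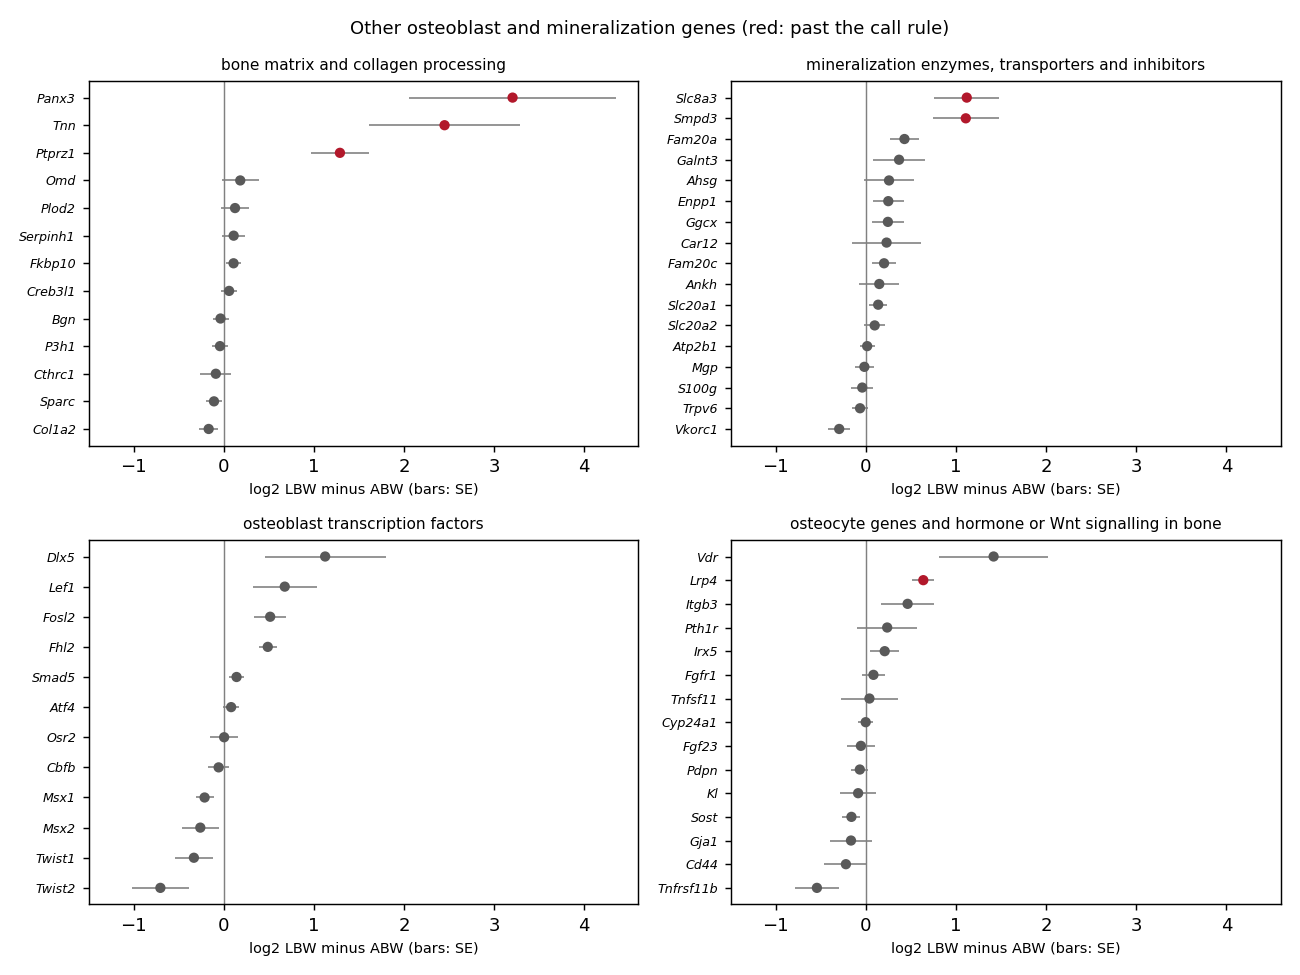
Log2 difference of LBW minus ABW with its SE (horizontal axis) for the 57 other osteoblast and mineralization genes with a row, in 4 lists, with genes past the call rule in red. Most points lie near 0, and the 6 called genes (*Panx3*, *Tnn*, *Ptprz1*, *Slc8a3*, *Smpd3* and *Lrp4*) lie to the right.

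The genes whose profile was most like that of the members were sought among 9650 other symbols, by the root mean square distance between a gene's 6 differences to the ABW mean and the mean profile of the members. The nearest were *Tnn* (0.284), *Mmp9* (0.449), *Acan* (0.491), *Atp6v0d2* (0.499) and *Stfa2l1* (0.546), compared to a median distance of 2.23 over those symbols. The distance is not scaled, so it favours genes raised strongly in LBW 1 and LBW 3, and the median is that of genes with little change. All of these genes but *Atp6v0d2* stand in the study's short list, and *Tnn* had a row only through it. The 5 nearest are respectively a bone matrix protein, a gelatinase of osteoclasts and neutrophils, the main proteoglycan of cartilage, a proton pump subunit of osteoclasts, and a stefin of granulocytes. *Mmp9* differed from the ABW mean by 3.26, 0.25 and 5.16 in LBW 1, 2 and 3. *Atp6v0d2* differed by 2.85, 0.01 and 5.18. *Tnn*, *Mmp9* and *Atp6v0d2* were at or under the floor in all ABW pups and in LBW 2. The mean of the members was 3.28, 0.60 and 4.24.

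Marker lists of other cell types in or near muscle moved with the members in part. Their part in the members' differences was not tested. Over all genes, 2.38% were called higher in LBW and 44.4% had a log2 difference above 0, to be set beside the counts that follow. For the members, the summed linear signal ran from 4330 to 58572 in LBW and from 2171 to 2635 in ABW pups. Of 12 osteoclast markers with a row, 9 were higher in LBW and 3 were called (*Mmp9*, *Acp5* and *Snx10*), with summed signals of 17112 to 38750 in LBW and 17495 to 18681 in ABW pups. *Ctsk*, the collagen-degrading protease that defines osteoclasts, differed by 0.29 (SE 0.23, adjusted p = 0.646 by limma), and *Calcr*, the calcitonin receptor, was at or under the floor in all pups. Of 10 chondrocyte markers 9 were higher and 3 were called (*Acan*, *Col10a1* and *Sox6*), with sums of 15977 to 29452 in LBW and 13836 to 16609 in ABW pups, and *Col2a1*, the defining collagen of cartilage, differed by 0.33 (SE 0.22, adjusted p = 0.587 by limma). The mean difference to the ABW mean was 0.89, 0.10 and 1.60 for the osteoclast list and 0.92, 0.14 and 1.48 for the chondrocyte list in LBW 1, 2 and 3, the order of the members. Neutrophil precursor markers were called for 8 of 11 genes, all higher, with means of 1.96, 0.82 and 1.64 and sums of 9616 to 19484 in LBW and 5985 to 6563 in ABW pups. *S100a8*, *S100a9* and *Mmp8*, granule and calgranulin genes, differed by 2.05, 2.19 and 3.03 (adjusted p = 0.238, 0.216 and 0.216 by limma), whereas *Prtn3* was at or under the floor in all pups. In all 3 ABW pups, 3 osteoclast, 4 chondrocyte and 5 neutrophil precursor markers were at or under the floor, and the others were not. Adipocyte markers were lower for 10 of 11 genes, and 3 (*Lep*, *Pparg* and *Adrb3*) were called lower, beside 1.89% of all genes. Their sums were 41872 to 56820 in LBW and 53065 to 78441 in ABW pups, and their mean difference to the ABW mean was -0.46, -0.45 and -1.31 in the LBW and -0.59, 0.39 and 0.19 in the ABW pups. ABW 1 was thus lower than LBW 1 and LBW 2. The called markers named here, other than *Sox6*, stand in the study's short list as well. *Col10a1*, *Ngp*, *Camp*, *Olfm4* and *Stfa2*, all called higher, had a row only through that list, which was drawn up from these arrays. These genes could thus be counted only because they were changed, while *Mpo*, *Elane*, *Ctsg*, *Ltf* and *Csf3r* had no row. No erythroid or tendon marker was called (median differences -0.22 over 9 and 0.03 over 4 genes). The label of the tissue was borne out by its markers, as none of 11 skeletal muscle genes was called or lay at the floor, and *Acta1*, skeletal actin, averaged 15.32 ± 0.14 and 15.36 ± 0.06 over the LBW and the ABW pups (SD, n = 3 each).

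**Figure D5:**
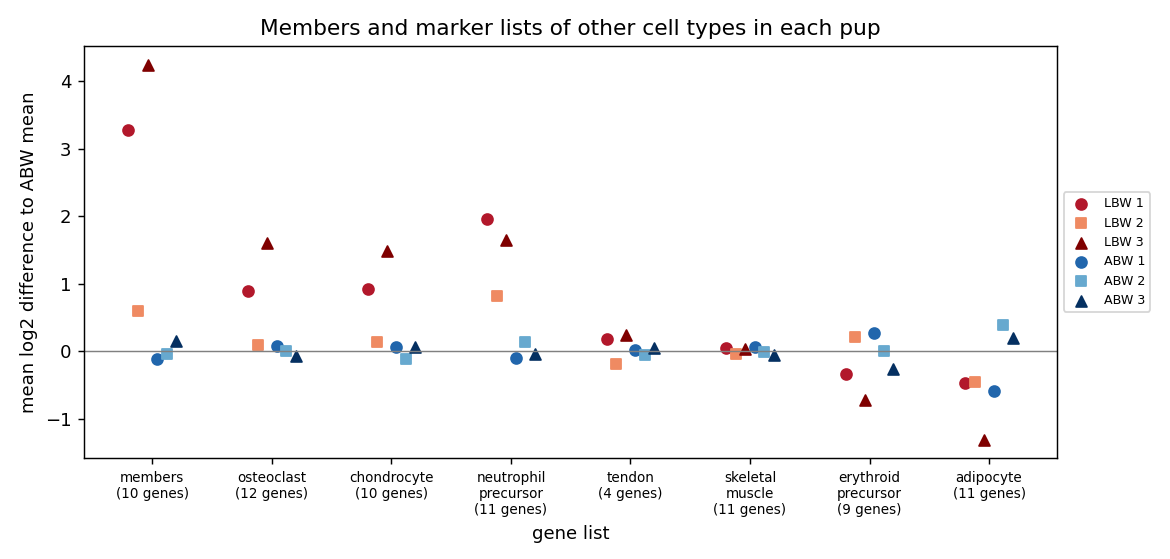
Mean log2 difference to the ABW mean (vertical axis) over the members and over 7 marker lists, in each pup. LBW 3 exceeds LBW 1 for the members, the osteoclast and the chondrocyte list but not for the neutrophil precursor list, and the skeletal muscle list stays between -0.05 and 0.06 in all pups.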

How the data were processed

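RNA of skeletal muscle from 6 pups was hybridised to 1-colour NimbleGen arrays (5 probes per transcript). The authors deposited log2 values, 1 per transcript and pup, after normalization with their own R code, and the submitters' processing notes name RMA. The background correction is not given in the sources used here. The 26419 rows ran from 4.58 to 15.49, with array medians of 8.70 to 8.76. Of these rows 9781 (37.0%) could be named by RefSeq accession, from a GRCr8 gene table or, for 34 (*Runx2* and *Tnn* among them), only from the study's short list of changed genes. Rows of a symbol were averaged (26298 features). LBW and ABW were compared with limma 3.58.1 in R 4.3.3 (2-sided, Benjamini-Hochberg adjustment over all features), which was tested on simulated data. The number of arrays sets the precision. For 3 pups against 3, the smallest p that an exact permutation test allows is 0.1. The members, lists and tests were chosen with earlier results of these data known. Named genes are the members; in each pathway list those called and up to 4 with the largest difference; in each marker list up to 3 with the largest difference and 2 with the highest mean; the 5 nearest profiles; and genes with a defining role or position, added after their values were seen. TAATTA and TATAAA were added likewise. Promoter windows were the 250 bases before each RefSeq start. Protein sequences were not analysed here. Alternatives were the replicate block, leaving out each pup, quantile normalization, median centring, no dim rows (lowest 25%), an intensity trend, Student's t-test, a 2-fold criterion, arithmetic means and RefSeq names only. The t-test is named in the study's general statistics and not for its arrays.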

Additional observations from a re-analysis of the deposited data

How the results depend on the processing

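The 10 members kept their direction in all 119 single-gene values under the alternatives, each within 1 SD of the LBW pups. Without 1 LBW pup the second part could not fail, since leaving out 1 of 3 values cannot move their mean by 1 SD. Nothing is read from it there. The sizes did depend on single pups. Without any 1 pup, *Mepe* ranged from 0.46 to 2.55 and *Sp7* from 0.60 to 2.24. The median of the 10 members (2.47) ranged from 1.71 to 3.50 and the late minus early difference (-0.64) from -0.96 to -0.34 without any 1 pup, and both stayed within 1 SD elsewhere. The count of members past the call rule (7), for which the alternatives were added after seeing the data, was 3 by Student's t-test and 3 to 10 without any 1 pup (10 without LBW 2, 3 without LBW 1, 4 without LBW 3). Of the 57 other pathway genes, 6 were called, 2 by Student's t-test (*Ptprz1* and *Lrp4*) and 1 to 13 without any 1 pup. Of all transcripts, 1131 were called, 586 by Student's t-test, 336 at a fold change of at least 2 and 806 to 1555 without any 1 pup. None passed after adjustment, except 126 without LBW 2 (range 0 to 126). Members at the signal floor in all ABW pups were 4 at the 95th and 2 at the 90th percentile. The cause was not tested, except that a higher fold criterion or lower floor can only remove calls. Between pups of like replicate number, the correlations of deviations from the group means were 0.087, 0.103 and 0.055. Those between pups of unlike number were not computed, so whether the replicate numbers pair the pups is not settled. With the replicate block, 1236 transcripts, 8 members and 6 other pathway genes were called, and the median (2.47) and late minus early difference (-0.64) were as without it.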
